A study of Mus musculus with 5 samples.

Results

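Timp3, Pias3 and Tgfbi are genes reported in the literature as targets of the microRNA miR-21. They were taken by gene symbol from a table of messenger RNA values in mouse pancreas. All 3 were among the 1457 genes listed for each of 5 libraries, and all 3 were among the 1429 genes with values high enough to be tested. The knockout caerulein group (genotype miR-21-/-) had 2 libraries, numbered 1 and 3, and the wild-type caerulein group had 2 libraries, numbered 1 and 2. The wild-type saline group had 1 library, so it has no replicate, and no knockout saline library was analysed here. All libraries came from pancreas of female C57BL/6 mice aged 8 weeks. Caerulein, a peptide that acts on cholecystokinin receptors and brings on acute pancreatitis, was injected repeatedly at 50 µg/kg, and the pancreas was collected 24 h after the first dose. It is not stated whether libraries come from separate mice, nor how the miR-21 allele was made, so p-values measure the spread between these libraries, which may be technical.

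MicroRNAs guide a silencing complex to messenger RNAs, mainly through pairing of the seed, the bases near their 5′ end, with sites in the 3′ untranslated region (3′ UTR), and so lower translation and often the level of the message. Loss of a microRNA can therefore leave its targets at higher levels, although many effects on single messages are small. MiR-21 is known for its increase in inflamed and fibrotic tissue and in many tumours. Timp3 encodes a matrix-bound inhibitor of metalloproteases, Pias3 an inhibitor of the transcription factor STAT3 that also acts as a SUMO ligase, and Tgfbi a secreted matrix protein induced by TGF-beta that binds integrins and collagen.

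The mature microRNA is shown because its seed decides which matches were sought in the targets. RefSeq (GRCm38.p6) places it at chr11:86584120-86584141 on the minus strand, and capitals mark the seed, bases 2 to 8.
mmu-miR-21a-5p: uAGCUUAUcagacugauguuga
An 8-base match to it reads ATAAGCTA in the message, a 7-base match reads ATAAGCT or TAAGCTA, and a 6-base match reads TAAGCT. The shorter ones lie within the longer ones, so each site was counted once by its longest match, on the message strand alone. The 3′ UTRs came from the GENCODE M21 annotation (GRCm38), a newer build than the mm8 named for the deposited values, and 1435 of the 1457 listed genes (98.5%) had one.

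Timp3 and Tgfbi each held one 8-base match in the 3′ UTR, and Pias3 held none of the matches. The sites are printed from the message strand, the plus strand of the genome for both genes, with the match in capitals. The Timp3 site lies at chr10:86348212-86348235, its match at bases 2325 to 2332 of a 3′ UTR of 3604 bases. The Tgfbi site lies at chr13:56639169-56639192, its match at bases 427 to 434 of a 3′ UTR of 601 bases.
Timp3: gtttttgagctttcaATAAGCTAt
Tgfbi: agaaacggcatcactATAAGCTAt
Timp3 had a further 6-base match at bases 2850 to 2855. Among 1739 genes with a 3′ UTR of 80 to 125% of the Timp3 length, 5.9% held an 8-base match, and among 2436 genes of like length to Tgfbi, 0.7% did. Pias3 (gene at chr3:96696384-96706070, plus strand) has a 3′ UTR of 847 bases, and 15.9% of 2791 genes of like length held at least a 6-base match. None of the 4 complete coding transcripts of Pias3 held a 6-base match, in the 3′ UTR or before it. The absence says only that these letters are not in the annotated mouse transcripts. Over all 21005 protein-coding genes with a 3′ UTR, 1.9% held an 8-base match, and over the 1435 listed genes, 1.7% did.

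The deposited values have no stated unit, and their sums over the listed genes were 32770 and 34393 in the knockout caerulein libraries 1 and 3, 38628 and 23255 in the wild-type caerulein libraries 1 and 2, and 2818 in the saline library. The files give no read depth and so allow no counting interval. The table holds a chosen part of the transcriptome, ordered exactly by the ratio of the mean wild-type caerulein value to saline, and every gene in it differs at least 2.528-fold from saline in some caerulein library. Comparisons with saline are therefore read against the share of all tested genes that did the same. Spearman's rho across the tested genes, themselves no independent replicates, was 0.73 between knockout 3 and wild-type 1 and 0.74 between knockout 1 and wild-type 2, against 0.45 within the knockout and 0.35 within the wild type, so the libraries paired across genotype rather than within it. The labels give no batch. Neither miR-21 nor its neighbour Vmp1 was analysed here, so the deletion was not checked. Acinar cells make up most of the pancreas, and of 20 acinar markers 3 were listed, with sums of 298.53 and 605.15 in the knockout caerulein libraries, 947.71 and 29.21 in the wild-type caerulein libraries and 10.84 in saline, where Prss1 stood at the lowest value, 0.01. With few acinar markers in the table, the tissue label was not checked further.

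The comparison of knockout with wild-type pancreas after caerulein addresses whether these targets stand higher without miR-21. Pias3 was the one of the 3 whose groups did not overlap. It had values of 13.54 and 17.09 in knockout libraries 1 and 3, against 7.09 and 5.04 in wild-type libraries 1 and 2. Both knockout libraries lay above both wild-type libraries, and the lower knockout value was 1.91 times the higher wild-type value. The means were 15.3 ± 2.51 in knockout libraries and 6.07 ± 1.45 in the wild type (SD, n = 2 each), a ratio of 2.53 on the scale of the deposited values. The log2 difference, on the log2(value + 1) scale used for all tests, was 1.21 (SE 0.82, 95% interval −0.39 to 2.82), and limma's adjusted p over all genes was 0.9997. The difference was thus not past the threshold of 0.05. The exact two-sided permutation p was 0.333, the smallest that 2 libraries against 2 allow, and 0.999 after adjustment over the 3 genes.

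The same pattern of both knockout libraries above both wild-type libraries was seen for 68 of 1429 tested genes (4.76%), and the opposite for 65 (4.55%). With every knockout library at least 1.5 times every wild-type library, a limit set after the values were seen, 13 genes (0.91%) remained, Pias3 among them. Pias3 ranked 7 of 1429 for the gap between its lowest knockout and highest wild-type value, 37 for the size of the log2 difference and 24 for limma's unadjusted p of 0.1377. In the wild-type caerulein libraries Pias3 was 1.77 and 1.26 times saline, under the 2.528-fold that every listed gene reaches in some caerulein library. It is therefore listed only through its knockout libraries, which favours a higher knockout in this order and these ranks. Within the pairs of libraries that resembled each other, Pias3 was 2.41 times higher in knockout 3 than in wild-type 1 and 2.69 times higher in knockout 1 than in wild-type 2. By rank within each library, which no scaling changes, Pias3 stood at 570 and 367 of 1457 in the knockout and at 1252 and 926 in the wild type after caerulein.

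Tgfbi had values of 69.88 and 56.99 in knockout libraries 1 and 3, against 76.09 and 38.24 in wild-type libraries 1 and 2. The knockout values lay between the wild-type values. The log2 difference was 0.22 (SE 0.89, 95% interval −1.53 to 1.97; limma adjusted p = 0.9997; exact permutation p = 1.0), and it was −0.27 without wild-type library 2. Timp3 had 31.51 and 17.05 in knockout libraries 1 and 3, against 31.99 and 20.06 in wild-type libraries 1 and 2. Each genotype held a high and a low library, and the groups overlapped. Its log2 difference was −0.12 (SE 0.86, 95% interval −1.81 to 1.56; limma adjusted p = 0.9997; exact permutation p = 0.667), and it was 0.30 without knockout library 3 and 0.20 without wild-type library 1. The intervals of Tgfbi and Timp3 take in a 2-fold difference either way, so such a difference was not detectable with these libraries.

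**Figure D1:**
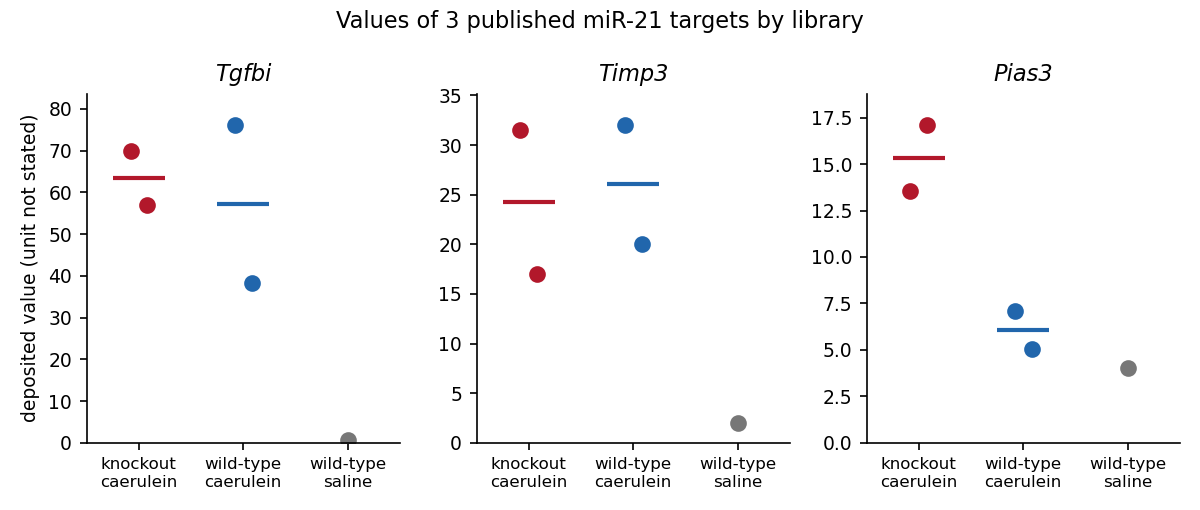
Deposited value (unit not stated, axis from 0) of Tgfbi, Timp3 and Pias3 in each library of the knockout caerulein, wild-type caerulein and wild-type saline groups; dots are libraries and bars are means of 2. The knockout dots of Pias3 (13.54 and 17.09) lie above the wild-type caerulein dots (7.09 and 5.04), while those of Tgfbi and Timp3 overlap.

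The spread within groups differed between the 3 genes. The 2 knockout libraries differed 1.26-fold for Pias3, 1.23-fold for Tgfbi and 1.85-fold for Timp3, where the median tested gene differed 1.86-fold. The 2 wild-type libraries differed 1.41-fold for Pias3, 1.99-fold for Tgfbi and 1.59-fold for Timp3, where the median was 2.34-fold. Pias3 had the smallest spread of its own, an SD of 0.26 on the log2 scale, against 0.51 for Tgfbi, 0.53 for Timp3 and 0.79 for the median gene. Limma pooled the spread over all tested genes, with 2858 degrees of freedom for each of the 3. The SE of 0.82 for Pias3 therefore reflects the spread of other genes and not its own. Genes are no independent replicates, so limma's p-values and intervals may be too small and too narrow.

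Limma called none of the 1429 tested genes between the genotypes (0 higher and 0 lower, 0.0%), and 7 (0.49%) had an unadjusted p under 0.05. Of 44 published miR-21 targets in a hand-made list, 7 were measured. None of the 7 was called, and 6 had a log2 difference above 0, as did 58.9% of tested genes with a 3′ UTR. The median of the 7 was 0.57, against 0.10 for all tested genes. The groups did not overlap for 3 of the 7, all with the knockout higher, where 4.76% of tested genes did so. Pias3 is among these 3, and it is listed only through its knockout values. The full rule by which genes were listed is not given, so other members may also be listed through their higher group. The 4.76% may therefore be no fair background for the 3 of 7. Cdk2ap1, a CDK2-associated protein, was 28.11 and 16.81 in knockout libraries and 11.24 and 11.65 in the wild type. Wwp1, a ubiquitin ligase, was 6.69 and 4.46 in knockout libraries and 15.35 and 1.07 in the wild type, groups that overlap. The groups of Sgk3, a kinase named after its values were seen, also overlapped. Sgk3 was 13.11 and 2.74 in knockout libraries 1 and 3, 4.71 and 3.22 in the wild type and 3.01 in saline. Only knockout library 1 differs from saline by the 2.528-fold that every listed gene reaches, so Sgk3 too is listed only through the knockout. Its log2 difference of 0.57 is the median of the 7, which is thus partly set by how the table was chosen. In their 3′ UTRs, Cdk2ap1 and Sgk3 each held one 6-base match, and Wwp1 held one 7-base and one 6-base match.

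**Figure D2:**
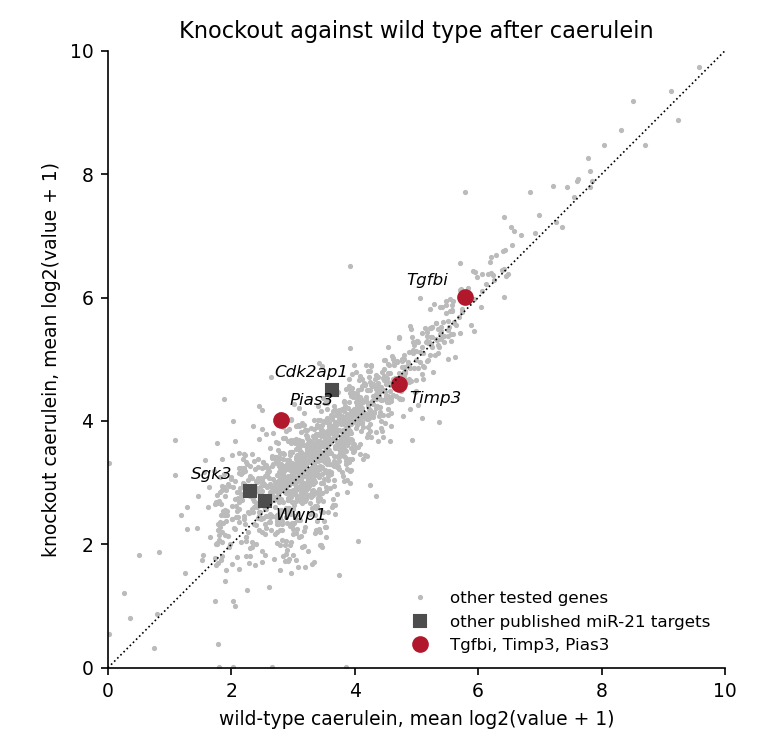
Mean log2(value + 1) of the 2 knockout caerulein libraries (vertical axis) against that of the 2 wild-type caerulein libraries (horizontal axis) for 1429 tested genes; the dotted line marks equal values. Pias3 and Cdk2ap1 lie above the line, while Tgfbi and Timp3 lie close to it.

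Tgfbi and Timp3 belonged to 24 tested genes with an 8-base match, and these genes as a group did not stand above the others in the knockout. Their median log2 difference between knockout and wild type was 0.03, against 0.10 for 1028 genes with no match, and 13 of the 24 (54.2%) had a difference above 0, against 59.3% of the genes with no match. Both knockout libraries lay above both wild-type libraries for 2 of the 24 (8.33%) and for 4.57% of the genes with no match. Genes with a 7-base match but no 8-base match had a median of 0.11 (135 genes), and those with a 6-base match alone had 0.09 (223 genes). Without wild-type library 1 the medians were 0.42 for the 8-base group and 0.52 for genes with no match, and without wild-type library 2 they were −0.42 and −0.33. Without knockout library 1 they were 0.016 and 0.021, and without knockout library 3 they were −0.024 and 0.14. The 8-base genes have longer 3′ UTRs (median 3527 bases, against 871 for genes with no match), whose part in these values was not tested.

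**Figure D3:**
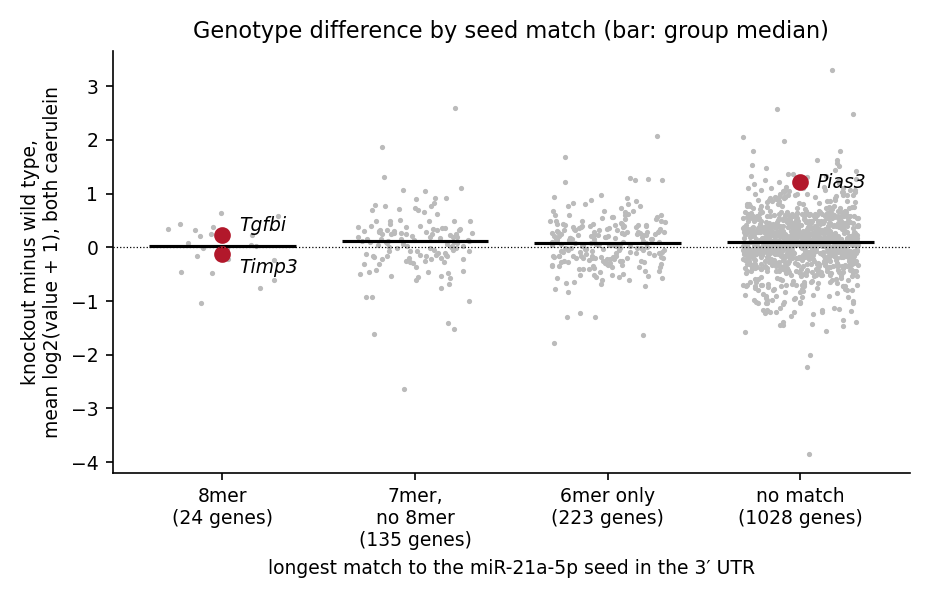
Log2 difference between knockout and wild type after caerulein for each tested gene, grouped by the longest match to the miR-21a-5p seed in its 3′ UTR; black bars are group medians. The medians lie between 0.03 and 0.11, with Tgfbi and Timp3 near the bar of the 8-base group and Pias3 at 1.21 among genes with no match.

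Of the marker sums of other cells compared here, that of islet cells had genotypes that did not overlap. Of 9 islet markers 2 were listed, Pcsk2 and Slc2a2, and their sum was 41.96 and 26.63 in the knockout, 10.71 and 9.74 in the wild type after caerulein, and 25.91 in saline, with both knockout libraries above both wild-type libraries, as for Pias3, where 4.76% of tested genes had that order. Slc2a2 stood at 0.01 in wild-type library 2. Pcsk2 was 40.83 and 21.71 in the knockout, 9.7 and 9.73 in the wild type after caerulein, and 15.59 in saline. Only its knockout library 1 differs from saline by the 2.528-fold that every listed gene reaches. Pcsk2 is thus listed only through that library, which favours this order, as for Pias3, so the 4.76% is no fair background for it. The stellate cell and fibroblast markers, 5 of 14 listed, summed to 139.72 and 322.27 in knockout libraries and 704.44 and 95.57 in the wild type, and the monocyte and macrophage markers, 7 of 15, to 388.69 and 363.04 against 419.31 and 311.08. These sums overlap between genotypes, as do the values of Tgfbi and Timp3. The part of any of these cells in the values of the 3 genes was not tested, and in whole tissue fewer cells of a type and less RNA per cell cannot be told apart.

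The comparisons with saline describe the levels after a day of caerulein. Both share the 1 saline library, and the knockout comparison also differs in genotype. Tgfbi was 69.88 and 56.99 in knockout libraries and 76.09 and 38.24 in the wild type after caerulein, and 0.7 in saline. All 4 caerulein libraries stood above saline, from 54.6 to 108.7 times its value. Both libraries stood above saline for 94.2% of tested genes in the knockout and for 89.2% in the wild type, as they did for all 3 of these genes. Its log2 difference was 5.24 for knockout caerulein against saline (SE 1.09; limma adjusted p = 0.0001527) and 5.02 for wild-type caerulein against saline (SE 1.09; limma adjusted p = 0.000251), so Tgfbi rose in both. With saline scaled to match the other libraries by quantile normalization, both calls were lost, at 2.28 for the knockout (limma adjusted p = 0.4342) and 2.28 for the wild type (adjusted p = 0.3776). Median-ratio scaling also ended the wild-type call, at 2.71 (adjusted p = 0.05218). Higher calls were made for 60.3% of tested genes in the knockout comparison and for 57.3% in the wild-type comparison, lower calls for 0.14% and 0.0%, and an unadjusted p under 0.05 was found for 67.6% and 64.0%. Tgfbi ranked 16 and 26 of 1429 by p-value in these comparisons, and stood 2.44 and 2.31 above the median log2 difference of all tested genes, which was 2.80 for the knockout and 2.71 for the wild type.

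Timp3 was 31.51 and 17.05 in knockout libraries and 31.99 and 20.06 in the wild type after caerulein, against 2.04 in saline, so that each caerulein library was between 8.36 and 15.7 times the saline value. It rose by 2.99 on the log2 scale in the knockout (SE 1.05; limma adjusted p = 0.01253) and by 3.12 in the wild type (SE 1.05; limma adjusted p = 0.01102). Both calls ended when saline was scaled to match the other libraries. The difference was then 0.11 by quantile normalization and 0.049 by median ratio for the knockout (limma adjusted p = 0.9941 and 0.9788), and 0.33 and 0.31 for the wild type (adjusted p = 0.9985 and 0.8702). The unscaled differences are close to the medians of the table, 0.19 and 0.41 above them. The knockout call was lost without knockout library 1 (limma adjusted p = 0.1716), and the wild-type call without knockout library 1 (adjusted p = 0.057) or wild-type library 1 (adjusted p = 0.05585).

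Pias3 was 13.54 and 17.09 in knockout libraries and 7.09 and 5.04 in the wild type after caerulein, against 4.01 in saline. The knockout libraries stood 3.38 and 4.26 times above saline and the wild-type libraries 1.77 and 1.26 times. Neither difference passed, with a log2 difference of 1.70 in the knockout (SE 1.002, 95% interval −0.27 to 3.66; limma adjusted p = 0.1232) and 0.48 in the wild type (SE 1.002, 95% interval −1.48 to 2.44; limma adjusted p = 0.6601), and both turned negative when saline was scaled to match the other libraries. The log2 difference of Pias3 minus that of the median gene was −1.105 in the knockout and −2.23 in the wild type. In saline it ranked 156 of 1457, higher than in any caerulein library. Only 9 of 1457 genes (0.62%) had both wild-type caerulein libraries within 2-fold of saline, and 3 of these had both knockout libraries over 2-fold above it, Pias3, Prss1 and Hnrnph1; the mirror pattern held for 2 genes. This pattern was looked for after the values were seen. Every listed gene differs at least 2.528-fold from saline in some caerulein library. A gene with both wild-type libraries within 2-fold can therefore be listed only through a knockout library. The small share, and the higher knockout values within it, are thus partly set by how the table was chosen. Prss1 stood at 0.01 in all wild-type libraries.

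**Figure D4:**
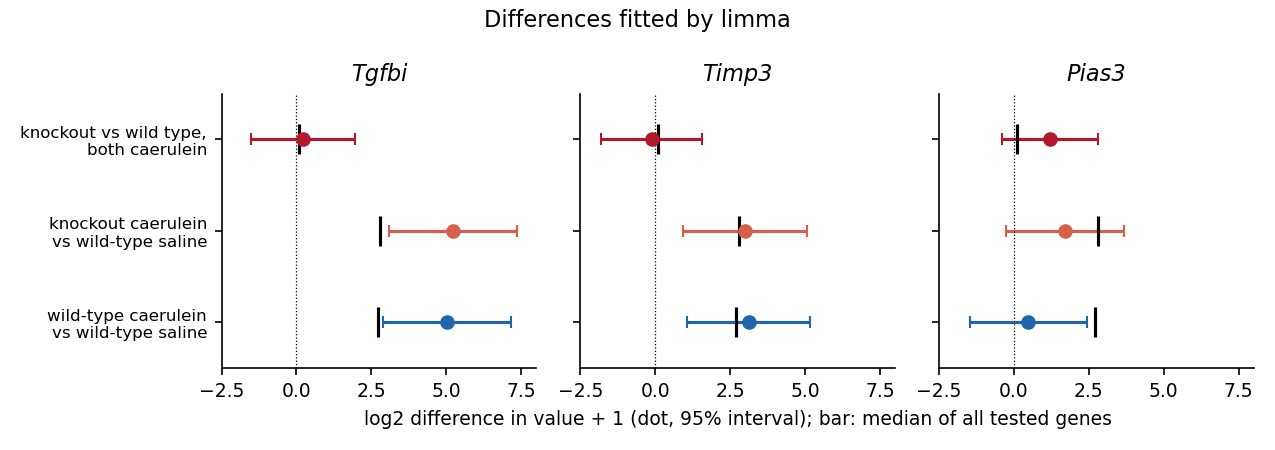
Log2 differences fitted by limma for Tgfbi, Timp3 and Pias3 in 3 comparisons (dot, with its 95% interval), with a black bar at the median of 1429 tested genes. Tgfbi lies above the median bar in both comparisons with saline, Timp3 close to it, and Pias3 below it.

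The sums of the stellate and fibroblast markers and of the macrophage markers were, like Tgfbi and Timp3, higher in every caerulein library, as given above, than in saline, at 1.72 and 3.17. Most tested genes had this order, 94.2% in the knockout and 89.2% in the wild type. The acinar sum, the ductal marker Krt8 and the neutrophil marker Csf3r were also higher in every caerulein library. Those of the islet, erythroid and lymphocyte markers were not. Col3a1 made up most of the stellate sum in each caerulein library, with 73.25 and 271.09 in knockout libraries, 525.1 and 50.15 in wild-type libraries and 0.38 in saline. Pdgfra of the same list was below saline in wild-type library 2, with 1.28 and 3.62 in knockout libraries, 11.51 and 0.9 in wild-type libraries and 0.99 in saline, and Pdgfrb, Fn1, Emr1, Mrc1 and Ly6c2 stood at 0.01 in saline. Vwf, 1 of 7 endothelial markers listed, was 27.77 and 15.25 in knockout libraries and 10.15 and 22.93 in the wild type, against 2.08 in saline. The part of these cells in the difference from saline was not tested.

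Without rescaling, the other measured genes around Timp3 were also called higher than saline. With saline scaled to match the other libraries, the calls of Timp3 ended. For the genes besides Timp3, Pias3 and Tgfbi in this and the following lists, such scaling was not tested. Of 30 metalloproteases and inhibitors 6 were measured, Timp3 among them, and all 6 rose in both comparisons with saline, where 60.3% and 57.3% of tested genes did. Adamts2, which removes a propeptide from procollagens, was 17.6 and 11.57 in knockout libraries and 20.56 and 11.49 in the wild type, against 0.35 in saline. The sheddase Adam10 was 4.8 and 10.28 in knockout libraries and 24.71 and 3.06 in the wild type, Adam9 17.37 and 14.36 against 31.55 and 10.86, and both were listed at 0.01 in saline, as were Adam12 and Mmp15. The list's median log2 difference was 3.0 for the knockout and 3.32 for the wild type, against 2.80 and 2.71 for all tested genes. Between the genotypes none was called, and all 6 had values that overlap and log2 differences from −0.46 to −0.10.

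Around Pias3, 10 of 37 genes of STAT signalling and SUMO ligation were measured. Against saline, 5 of the 10 rose in each comparison, where 60.3% of tested genes did for the knockout and 57.3% for the wild type. Their median log2 differences were 2.83 for the knockout and 2.56 for the wild type, against 2.80 and 2.71 for all tested genes. Stat6, which acts downstream of interleukin-4, was 14.72 and 4.22 in knockout libraries and 11.19 and 14.73 in the wild type, against 0.36 in saline. The kinase Jak1 was 14.6 and 11.17 in knockout libraries and 20.95 and 4.37 in the wild type, against 0.79 in saline, and it rose in both comparisons. Jak2 passed in neither, and Socs2, a feedback inhibitor listed at 0.01 in saline, rose in both. Between the genotypes none of the 10 was called. Besides Pias3, Senp3, named after its values were seen, had groups that did not overlap, with knockout values of 15.49 and 16.59 against wild-type values of 12.33 and 11.49; 4.76% of tested genes had this order. Stat3, the main partner of Pias3, was not analysed here.

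Around Tgfbi, 8 of 33 genes of TGF-beta signalling and matrix adhesion were measured, and 7 of the 8 rose in each comparison with saline, where 60.3% of tested genes did for the knockout and 57.3% for the wild type. The median log2 difference was 3.80 for the knockout and 4.64 for the wild type, against 2.80 and 2.71 for all tested genes. Smad4, the shared mediator of TGF-beta signals, was 17.2 and 7.61 in knockout libraries and 9.42 and 5.39 in the wild type, and was listed at 0.01 in saline. Itgav, an integrin chain, passed in neither comparison, with knockout values of 2.97 and 5.42 against wild-type values of 13.05 and 1.45. Between the genotypes none of the 8 was called, and 2, Smad4 and Tgfbi, had log2 differences above 0. Fn1, fibronectin, and Thbs1, thrombospondin, had log2 differences of −1.38 (SE 0.87) and −1.28 (SE 0.83), with groups that overlap for Fn1 and do not for Thbs1, whose order, knockout below wild type, 4.55% of tested genes had.

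**Figure D5:**
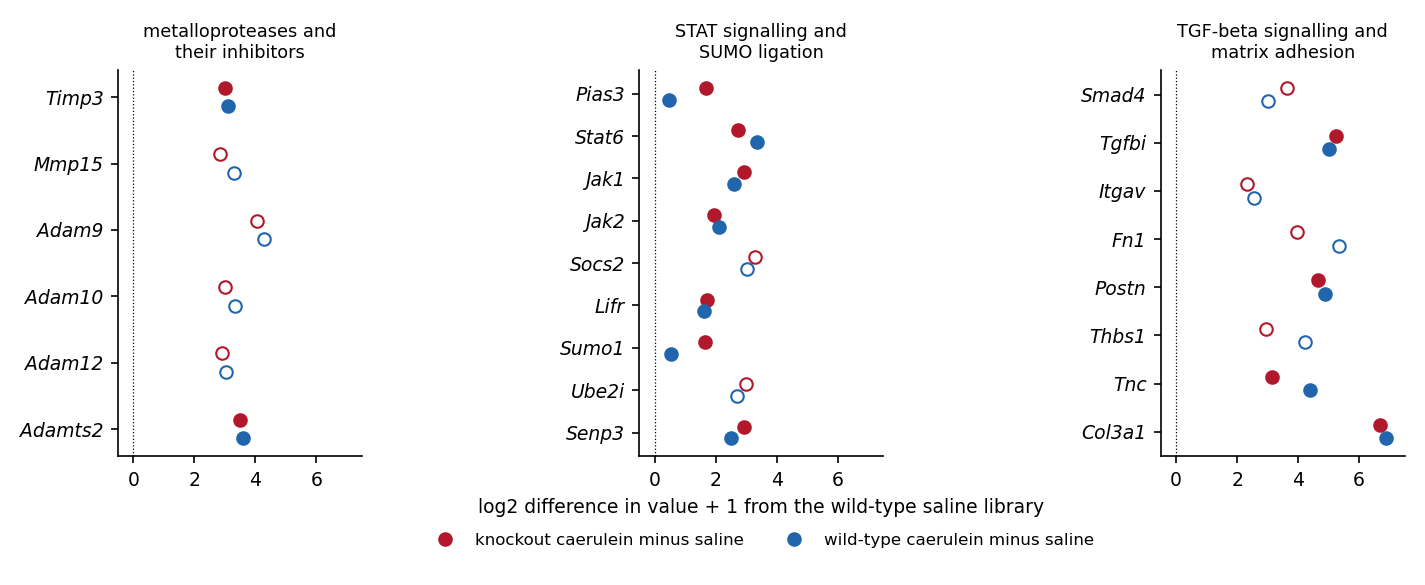
Log2 difference of value + 1 from the wild-type saline library for measured genes of 3 lists, for knockout caerulein (red) and wild-type caerulein (blue); open dots are genes listed at 0.01 in saline, whose differences depend on the added 1. Tgfbi and Timp3 have red and blue dots close together, while those of Pias3 lie at 1.70 and 0.48.

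Genes with a pattern most like each of the 3 were found by the distance between log2 values over the 5 libraries, each centred on its mean, among 850 other genes above 0.01 in all libraries. Timp3 was closest to Atp6v0a1, a subunit of the proton pump of vesicles, Mki67, a marker of dividing cells, and Vps41, a protein of lysosomal traffic, at distances of 0.27 to 0.30 where the median gene lay at 1.41. Mki67 was 0.02 in saline, close to the lowest value, so its nearness to Timp3, at 2.04 there, depends on the added 1. Tgfbi was closest to Sdc1, a cell-surface proteoglycan, Krt8, an epithelial keratin, and Mpeg1, a macrophage protein, at 0.41 to 0.57 with a median of 2.55. Pias3 had no neighbour so near: the closest, Ppp1r2, an inhibitor of protein phosphatase 1, Pabpc4, a poly(A)-binding protein, and Nck2, an adaptor protein, lay at 1.07 to 1.12, with a median of 2.17. These distances describe the 5 libraries and were not tested.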

How the data were processed

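Poly(A) RNA of whole pancreas was fragmented, reverse transcribed with random primers and sequenced on an Illumina instrument, per the labels' protocols. Bowtie 0.12.2 and build mm8 are named in the submitters' processing notes; how genes were quantified, selected and normalized is not given in the sources used here. For every gene symbol the deposited files hold 1 signal value of unstated unit. A blank row in each (1) was dropped. The values are not read counts, so the test planned for counts was not used. Values were taken as log2(value + 1) without rescaling, which understates changes among low values. Limma 3.58.1 (R 4.3.3) was fitted to genes that reached 1 in 2 or more libraries. The model had 1 mean for each group, used all 5 libraries, and took a trended, robust variance. Benjamini-Hochberg adjustment covered 1429 genes, with a threshold of 0.05. The 2 residual degrees of freedom of each gene come from the caerulein groups, so saline is assumed to vary as they do. Pooled over genes by limma, the degrees of freedom were 2858 for the 3 genes. Permutation tests used scipy 1.17.1 in Python 3.11.15. Alternatives were other scalings, filters, an added 0.1, other variance estimates and each library left out; caerulein-only scaling and a block joining similar libraries were chosen after seeing the data. The script was tested on simulated data. For each gene the principal coding transcript with the longest 3′ UTR was searched. Named were the 3 genes, up to 6 measured members of each list in list order, and the 3 nearest genes of each. Some genes under this rule are not reported here, though tests and list counts include them. The members and lists were chosen with earlier results of these data known. No column was left unused.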

Additional observations from a re-analysis of the deposited data

How the results depend on the processing

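No paired analysis was possible because the caerulein groups share only replicate number 1; the block named below joins libraries by the likeness of their values, not by any label. The log2 differences between knockout and wild type kept their sign and stayed short of the threshold under the settings run, except that a library left out turned signs: Pias3 ranged from 1.003 to 1.43, Tgfbi from −0.27 to 0.71 and Timp3 from −0.55 to 0.30 (Timp3 0.30 without knockout replicate 3 and 0.20 without wild-type replicate 1). The number of genes called, 0, was 1 (Hnrnph1) with a block joining similar libraries, chosen after seeing the data, and 0 to 4 with a library left out; the 4, without wild-type replicate 1, were Anxa10, Prss3, Hspd1 and Atp5f1.

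Against saline, quantile normalization and median-ratio scaling force saline to match and lowered the median of all genes, 2.80 for the knockout and 2.71 for the wild type, to 0.01 and 0.80 for the knockout and 0.01 and 0.82 for the wild type, in the order of these 2 scalings, while a pseudocount of 0.1 raised it to 4.15 and 3.88. Pias3 then became −1.24 and −1.43 for the knockout and −2.52 and −2.44 for the wild type. Timp3 lost its calls, at 0.11 and 0.049 for the knockout and 0.33 and 0.31 for the wild type, and Tgfbi at 2.28 for the knockout (quantile) and at 2.28 and 2.71 for the wild type. Over the 14 settings, Tgfbi stayed 1.98 to 2.52 above the median gene for the knockout and 1.89 to 2.32 for the wild type, and the same difference for Pias3 ran from −2.26 to −0.93 and from −3.31 to −2.05. With a library left out, Timp3 ranged from 2.57 to 3.42 (knockout) and 2.79 to 3.44 (wild type), Tgfbi from 5.09 to 5.38 and 4.53 to 5.50, and Pias3 from 1.54 to 1.85 and 0.27 to 0.69. Genes called for the knockout, 863, became 11 (quantile), 194 (median ratio) and 29 to 1028 with a library left out (29 without knockout replicate 1, 399 without knockout replicate 3). Those for the wild type, 819, became 12, 202, 480 without trend and robustness, 440 with only the groups compared, and 377 to 1080 (377 without knockout replicate 1, 509 without knockout replicate 3, 511 without wild-type replicate 1). With a library left out, 1 residual degree of freedom remains and the lone library is assumed to vary like the other group.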
